A study of Mus musculus with 12 samples.

Results

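The heat shock chaperones examined here are 10 genes of the cytosol and mitochondria, out of 54232 genes in the table. They are Hsph1, Dnaja1, Dnajb1, Hspa8, Hspa1a, Hspa1b, Hsp90aa1, Hsp90ab1, Hspd1 and Hspe1, taken from a list of names. Hsph1 and Dnaja1 were selected on their measured levels over the 4 groups, so their levels and differences are given as a description with no test. The other 8 genes were fitted with all 13368 genes that passed the filter on low counts. All 10 passed that filter, Hspa1a and Hspa1b only through Lgr5-GFP young libraries, so that a high level there is part of how they came to be tested.

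Intestinal stem cells (ISCs) divide in the crypts of the small intestine and replace its lining. Poly(A) RNA of sorted ISCs was sequenced from the 3′ end in 12 libraries, in 4 groups of 3. The SM6 groups came from C57/Bl6 wild-type mice and the Lgr5-GFP groups from the strain labelled Lgr5-EGFP-IRES-CreERT (Lgr5-EGFP-IRES-CreERT2 in the study's methods), in which a fluorescent reporter sits in the stem cell receptor gene Lgr5. Each strain was taken at 2 months (young) and at 22 months (old), and the study used female mice. The labels describe a sort by surface markers for all 12 libraries, but supplementary text describes sorting of the Lgr5-GFP cells by their fluorescence. Strain and isolation change together and cannot be told apart. The sort named in the labels includes a gate for low GRP78, the protein of Hspa5, so the level of Hspa5 is not independent of how the cells were chosen. Library totals ran from 970472 to 3815425 counts. Replicates are separate libraries by their labels, and p-values measure the spread between them. The intestinal stem cell markers were present in every group, with no gene of 17 at 0 in a whole group. Their summed level was lower in every old library than in every young one in both isolations, at 15613 to 19161 CPM against 10446 to 11782 in SM6 and 15564 to 17066 against 13172 to 15027 in Lgr5-GFP. In bulk RNA, fewer cells of a type and less RNA per cell cannot be told apart.

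Heat shock chaperones hold unfolded or newly made proteins and help them reach their folded form. The Hsp70 proteins cycle between ATP and ADP states as J proteins (Hsp40) bring them clients and nucleotide exchange factors release them, and the Hsp90 proteins finish the folding of kinases and steroid receptors. In mitochondria, Hspd1 (Hsp60) and its lid Hspe1 (Hsp10) form a closed folding chamber. The transcription factor Hsf1 raises many of these genes under protein stress by binding heat shock elements, runs of alternating NGAAN and NTTCN units in their promoters.

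Promoter sequence was at hand for 7 of the 10 genes (RefSeq, GRCm38.p6, 12 start sites), and was not analysed here for Hspa8, Hsp90aa1 and Hsp90ab1. A run of 3 alternating 5-base units (NGAAN and NTTCN, in either order, which covers both strands) was searched in the 250 bases before each start. It was present in 0.466% of the 32851 promoters of the whole table. Among the 7 genes it was found before the start of Hspe1 and before 1 of the 2 starts of Hspd1, in the same stretch read on opposite strands. With up to 1 mismatch in the 9 fixed bases the run was present in 6.08% of all promoters and in 6 of the 7 genes, all but Dnajb1. Genes are counted if any of their starts had the run, while the shares of the whole table are per promoter, so the units differ. This looser search was added after the exact matches had been seen. The sites are shown because they set the genes side by side, with the matched bases in capitals, and overlapping matches form 1 run. Each is written 5′ to 3′ on the strand of its gene. Windows were taken from RefSeq starts, and some lie within the longer GENCODE spans given for Hspd1, Dnaja1 and Hsph1. Dnaja1 held its site before 1 of 3 starts.
Hspe1 (chr1:55088053-55088082, plus strand, exact): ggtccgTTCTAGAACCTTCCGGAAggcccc
Hsph1 (chr5:149636346-149636375, minus strand, 1 mismatch): gaatctTTCTCGAAGGCTCGAGAAgaagga
Dnaja1 (chr4:40722331-40722360, plus strand, 1 mismatch): aaaaaagcCTCTAGAAAATTCtacgaggct
Hspa1a (chr17:34972157-34972276, minus strand, 1 mismatch): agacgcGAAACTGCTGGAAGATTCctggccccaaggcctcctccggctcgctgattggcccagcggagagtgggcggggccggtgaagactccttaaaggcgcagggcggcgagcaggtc
Hspa1b (chr17:34959239-34959358, minus strand, 1 mismatch): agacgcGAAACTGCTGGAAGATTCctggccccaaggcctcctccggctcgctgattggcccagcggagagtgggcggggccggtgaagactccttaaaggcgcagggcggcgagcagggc
The Hspe1 site is also the Hspd1 site read on the other strand. The Hspa1a and Hspa1b stretches end at the base before the start and are the same at 119 of 120 bases, and the full 250 bases are the same at 247. A match is a description of letters and says nothing about binding in these cells.

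**Figure D1:**
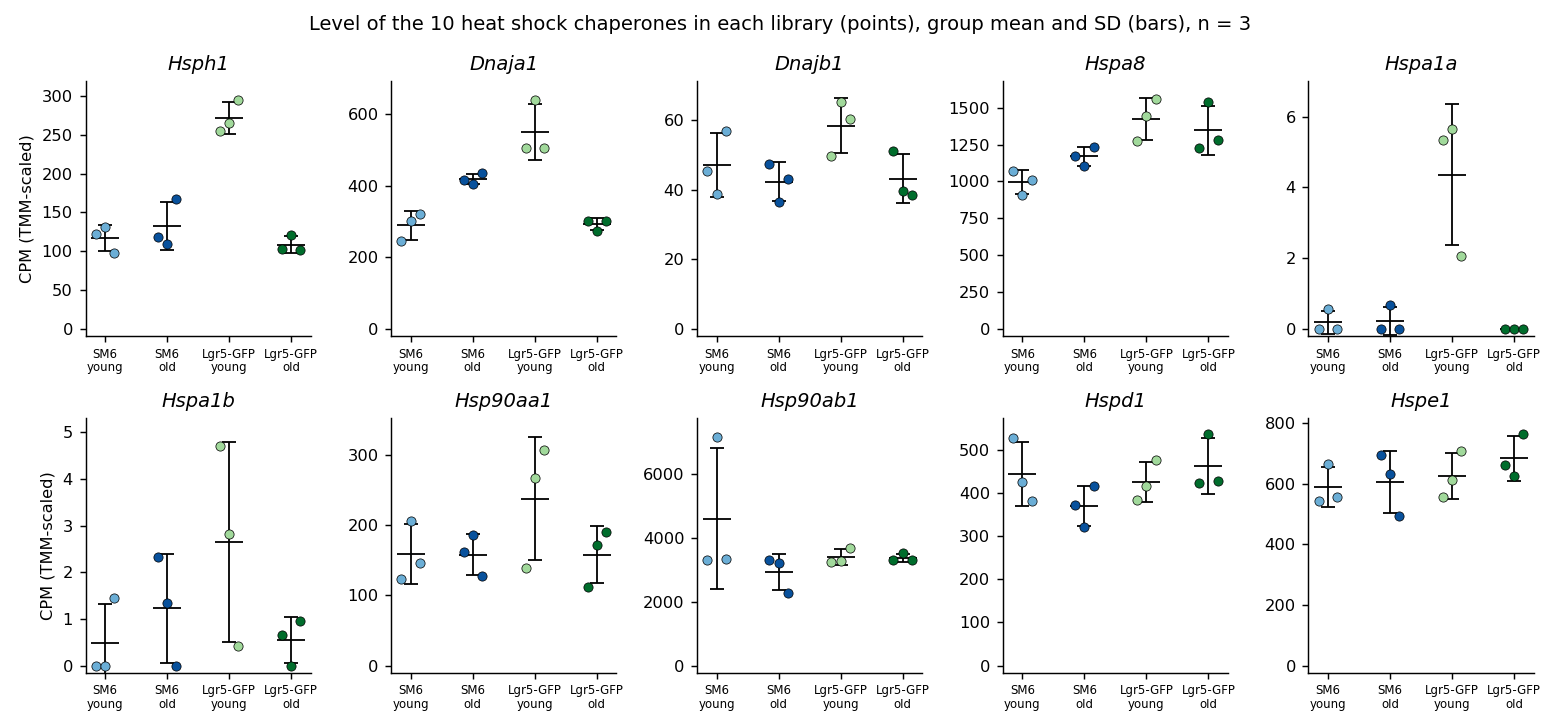
Level of each chaperone gene (CPM of TMM-scaled library totals, linear axes) in the 12 libraries. Points are libraries and bars are the mean and SD of 3. Hsph1 is at 254.7 CPM or more in every Lgr5-GFP young library and at 167.2 or less elsewhere, and Dnaja1 is high in Lgr5-GFP young and intermediate in SM6 old.

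Hsph1 encodes Hsp110, a relative of Hsp70 that releases nucleotide from it (chromosome 5, 149614287 to 149636376, GRCm38). Its level in CPM, the count relative to a library total scaled by edgeR (TMM method), was 123, 131 and 98.0 in the SM6 young libraries. In SM6 old it was 119, 109.6 and 167. The Lgr5-GFP young libraries had 255, 265 and 294, and the Lgr5-GFP old libraries 103, 121 and 101. The 3 Lgr5-GFP young libraries therefore stood above the other 9, and the other 3 groups overlapped. The group means were 271 ± 20.5 CPM in Lgr5-GFP young (SD, n = 3), 132 ± 30.9 in SM6 old, 117 ± 17.2 in SM6 young and 108 ± 10.9 in Lgr5-GFP old. On the log2 scale the fitted difference between old and young was -1.33 (SE 0.181) in Lgr5-GFP, which is 2.51-fold lower, and 0.16 (SE 0.182) in SM6. Without SM6 old replicate 3 the SM6 value was -0.032, and with library totals alone it was -0.0058. Lgr5-GFP young exceeded SM6 young 2.31-fold.

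Dnaja1 encodes a J protein of the cytosol that brings clients to Hsp70 (chromosome 4, 40722150 to 40737149). It was at 244, 302 and 323 CPM in SM6 young and at 416, 406 and 436 in SM6 old. It was at 505, 641 and 507 CPM in Lgr5-GFP young and at 303, 275 and 301 in Lgr5-GFP old. The ages did not overlap in either isolation, and the order was opposite: old was above young in SM6 and below young in Lgr5-GFP. The fitted log2 difference was 0.53 (SE 0.161) in SM6, 1.45-fold higher in old, and -0.91 (SE 0.162) in Lgr5-GFP, 1.88-fold lower in old. Group means fell in the order Lgr5-GFP young (551 ± 77.6 CPM, SD, n = 3), SM6 old (419 ± 15.1), Lgr5-GFP old (293 ± 15.8) and SM6 young (289.6 ± 40.5), of which the last pair overlapped. Such an opposite order without overlap in both isolations was found for 0.965% of the tested genes, a share from which nothing is read since the pattern chose the gene.

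Taken as Lgr5-GFP minus SM6, the age effects differed by -1.44 for Dnaja1 (SE 0.229) and -1.49 for Hsph1 (SE 0.256), again without a test. Over 19 alternative fits this difference ran from -1.53 to -1.09 for Dnaja1 and from -1.61 to -1.14 for Hsph1, the smallest size in both coming from library totals alone. Dnaja1 shares 608 exonic bases at its 3′ end with Smu1, a splicing gene on the opposite strand, and the strand setting of the counting was not given in the sources used here. Smu1 was at 47 to 154 counts per library against 313 to 1609 for Dnaja1, and its log2 age difference was 0.10 in SM6 and 0.096 in Lgr5-GFP, neither called (quasi-likelihood test of edgeR, adjusted p = 0.916 and 0.949).

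Dnajb1, the J protein best known as a heat-inducible partner of Hsp70, lies on chromosome 8 (83608193 to 83612653). It had 45.4, 38.7 and 56.9 CPM in SM6 young, 47.4, 36.5 and 43.0 in SM6 old, 49.6, 65.1 and 60.3 in Lgr5-GFP young and 51.2, 39.7 and 38.5 in Lgr5-GFP old. All 4 groups overlapped with at least 1 other. The log2 difference between old and young was -0.15 (SE 0.218) in SM6 and -0.41 (SE 0.214) in Lgr5-GFP, and neither was called (quasi-likelihood test of edgeR, adjusted p = 0.854 and 0.552).

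Hspa8, the constitutive Hsp70 of the cytosol, lies on chromosome 9 (40800984 to 40810087). It was at 1070.1, 912 and 1012 CPM in SM6 young and at 1170.1, 1106 and 1237 in SM6 old. The Lgr5-GFP libraries had 1277, 1443 and 1560 CPM when young (1559.8 in the highest) and 1225, 1536 and 1280 when old (1280.0 in the third). SM6 young was below every library of the other groups, and both Lgr5-GFP ages overlapped. At 2 months Lgr5-GFP exceeded SM6 by 0.52 on the log2 scale (SE 0.157), with an unadjusted p of 0.00319 in the edgeR quasi-likelihood test and a Benjamini-Hochberg adjusted p of 0.354. DESeq2 gave the same difference an adjusted p of 0.048. The age difference was 0.23 (SE 0.157) in SM6 and -0.083 (SE 0.156) in Lgr5-GFP, with adjusted p = 0.598 and 0.931 in edgeR.

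Hspa1a and Hspa1b, the paired stress-inducible Hsp70 genes of chromosome 17 (34969190 to 34972156 and 34956436 to 34959238), were close to 0 outside Lgr5-GFP young. Hspa1a had 17, 6 and 5 counts in the Lgr5-GFP young libraries, 0 in each Lgr5-GFP old library, and a total of 1 count in each SM6 group. Hspa1b had 15, 3 and 1 counts in the young and 1, 0 and 1 in the old Lgr5-GFP libraries. In SM6 it had 0, 0 and 2 counts when young and 3, 2 and 0 when old. The Hspa1a libraries of Lgr5-GFP young thus lay above those of every other group, whereas those of Hspa1b overlapped. Pooled over each group, Hspa1a was at 4.2 CPM in Lgr5-GFP young and at least 5.29-fold lower in Lgr5-GFP old, taking a floor of 3 counts over the group. This is a description, since the filter admitted the gene through its level in Lgr5-GFP young. Leaving out 1 Lgr5-GFP library, an alternative added after the counts had been seen, moved this bound between 3.18 (without Lgr5-GFP old replicate 1) and 6.82 (without Lgr5-GFP young replicate 3). Of the 19 Hspa1b counts of Lgr5-GFP young, 15 came from replicate 1, so no ratio is given for that gene.

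Of the 10 genes, Hspa1a and Hspa1b rest on the fewest counts. None of the 72-base windows, the read length, in the last 500 bases of the Hspa1a and Hspa1b transcripts occurred in each other or in another gene.

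Hsp90aa1, the inducible cytosolic Hsp90, lies on chromosome 12 (110690605 to 110702728). It varied within groups: 123, 207 and 147 CPM in SM6 young, 162, 186 and 127 in SM6 old, 139, 268 and 308 in Lgr5-GFP young and 112, 172 and 191 in Lgr5-GFP old. All groups overlapped. The Lgr5-GFP difference between old and young was -0.59 on the log2 scale (SE 0.252), with an unadjusted p of 0.028 and an adjusted p of 0.431 in the edgeR quasi-likelihood test (Benjamini-Hochberg). It was -0.35 without Lgr5-GFP young replicate 3, -0.39 without Lgr5-GFP old replicate 1 and -0.87 without Lgr5-GFP young replicate 1. In SM6 the difference was -0.0061 (SE 0.253), and its sign turned in several alternatives.

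Hsp90ab1, the constitutive cytosolic Hsp90, lies on chromosome 17 (45567775 to 45573271). Its levels were 3308, 7159 and 3346 CPM in SM6 young, 3314, 3208 and 2289 in SM6 old, 3234, 3278 and 3702 in Lgr5-GFP young and 3310.2, 3531 and 3314 in Lgr5-GFP old. A single library, SM6 young replicate 2, stood apart at 7159 CPM while the other 11 lay between 2289 and 3702. The SM6 difference between old and young was -0.65 on the log2 scale (SE 0.226), with an unadjusted p of 0.00845 and an adjusted p of 0.158 (edgeR quasi-likelihood test, Benjamini-Hochberg). Without SM6 young replicate 2 it was -0.18, and without a filter beyond 1 count it was -0.66 with an adjusted p of 0.0081. In Lgr5-GFP the difference was -0.0085 (SE 0.225). Gm6368, annotated apart from Hsp90ab1 but sharing 13 of its 1491 windows of 72 bases, held 243 counts in that same library and 10 to 103 in the others, or 1.88% of the Hsp90ab1 count against 0.281% to 1.23%.

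Hspd1 and Hspe1, the mitochondrial pair, start head to head on chromosome 1 (55077835 to 55088243 on the minus strand and 55088132 to 55091307 on the plus strand) and share 112 exonic bases at their starts. Hspd1 was at 527, 427 and 381 CPM in SM6 young, 372, 321 and 416 in SM6 old, 383, 417 and 476 in Lgr5-GFP young and 423, 537 and 427 in Lgr5-GFP old. Hspe1 was at 544, 665 and 558 CPM in SM6 young, 695, 631 and 495 in SM6 old, 557, 613 and 708 in Lgr5-GFP young and 661, 625 and 766 in Lgr5-GFP old. The ages overlapped for both genes in both isolations. For Hspd1 the log2 age difference was -0.27 (SE 0.172) in SM6 and 0.12 (SE 0.171) in Lgr5-GFP, and for Hspe1 it was 0.043 (SE 0.169) and 0.13 (SE 0.169), none of them called in the edgeR quasi-likelihood test (lowest Benjamini-Hochberg adjusted p = 0.569). At 22 months the Lgr5-GFP libraries of Hspd1 lay above those of SM6, by 0.32 on the log2 scale (SE 0.172, adjusted p = 0.589 in the same test).

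**Figure D2:**
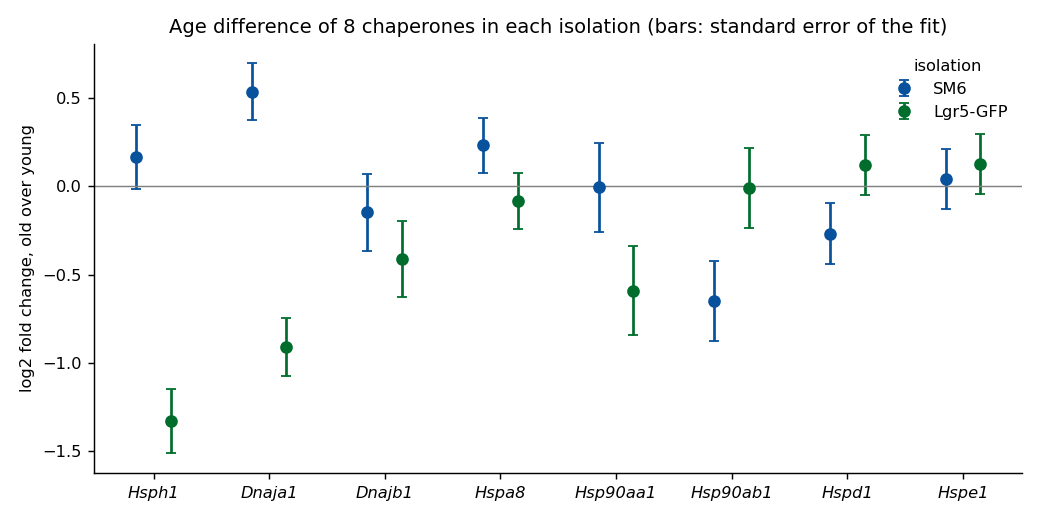
Fitted log2 fold change of old over young for 8 chaperones in SM6 and in Lgr5-GFP, with the standard error, derived from the test statistic, as bars. Hspa1a and Hspa1b are left out because their counts are near 0. Hsph1 and Dnaja1 have the lowest Lgr5-GFP values, -1.33 and -0.91, and Hsp90ab1 has the lowest SM6 value, -0.65.

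Hspa1a and Hspa1b were fitted too, but since the filter admitted them through the group in which they were high, no p-value is read from them and the counts here are over the other 6 tested chaperones. Of these, 0 were called between old and young in SM6, where 2.42% of all tested genes were called, and 1 had an unadjusted p under 0.05, as 13.1% of all tested genes did (edgeR quasi-likelihood test, Benjamini-Hochberg). In Lgr5-GFP 0 of 6 were called against 0.494% of all genes, and 1 was under 0.05 unadjusted against 9.78%. The average of both isolations gave 0 of 6 against 2.66% called, and 0 against 12.8% unadjusted. The difference of the age effects gave 0 of 6 against 0.658% called, and 0 against 9.42% unadjusted. Between the isolations at 2 months 0 of 6 were called against 0.0898%, and 2 were under 0.05 unadjusted, Hspa8 and Hsp90aa1, against 7.48%. At 22 months 0 of 6 were called against 0.718%, and 0 were under 0.05 unadjusted against 9.40%. DESeq2 called 1 of the 6 at 2 months, Hspa8, and 0 in the other 5 comparisons. The limma voom fit called 0 in all 6 comparisons. The standard errors of the 6 genes with more than a few counts show what this design could see: between 0.156 and 0.253 on the log2 scale for a difference between ages within an isolation.

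Counted by overlap of libraries, Hsph1, Dnaja1 and Hspa1a give no count of their own, as the pattern or the filter that admitted them fixes where they are high, and Hspa1b is left out for the same reason. Of the other 6 genes, 1 was separate between the ages in SM6 (Hspa8, higher in old), where 17.5% of all tested genes were. In Lgr5-GFP 0 of the 6 were separate, against 14.5%. Between the isolations 1 was separate at 2 months (Hspa8, higher in Lgr5-GFP, against 13.7%) and 1 at 22 months (Hspd1, higher in Lgr5-GFP, against 13.5%). The comparisons share groups. For the 6 tested genes with more than a few counts, the median log2 age difference was -0.076 in SM6 and -0.046 in Lgr5-GFP, beside -0.0068 and -0.034 over all tested genes.

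Of all counts, the 10 genes together took a mean of 0.756% in SM6 young (SD 0.231, n = 3) and 0.553% in SM6 old (SD 0.118). For Lgr5-GFP the mean was 0.670% when young (SD 0.133) and 0.702% when old (SD 0.0335). The highest single library was SM6 young replicate 2 with 1.02%, in which Hsp90ab1 was high, and the lowest was SM6 old replicate 3 with 0.418%. The ages overlapped within each isolation, as did the isolations at 2 months, while at 22 months all Lgr5-GFP libraries (0.679% to 0.741%) lay above all SM6 libraries (0.418% to 0.640%). With Paneth and Defa genes left out of the total, the order of the Lgr5-GFP ages turned: the mean was 0.788% when young (SD 0.0609) and 0.725% when old (SD 0.033), against 0.792% (SD 0.233) and 0.629% (SD 0.0534) in young and old SM6 libraries.

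Transcripts of other crypt cells moved with the groups. The Paneth cell list and the Defa genes (defensins, made by Paneth cells at the crypt base) took 1.42% to 8.90% of counts in SM6 young, 5.48% to 26.9% in SM6 old, 6.05% to 26.9% in Lgr5-GFP young and 2.52% to 4.21% in Lgr5-GFP old. By medians the share was highest in Lgr5-GFP young (13.3%) and next in SM6 old (5.63%), the groups in which Dnaja1 was also highest and next. All 11 genes of the Paneth list were called lower in the difference of the age effects, as 0.606% of all tested genes were. None of the 11 was at 0 in a whole group. Within groups the relation had no single direction. In the library with the highest Paneth share of its group, Hsph1 was lowest in Lgr5-GFP young (255 CPM) and Lgr5-GFP old (101), highest in SM6 old (167) and intermediate in SM6 young, where its lowest level (98.0) fell in the library with the lowest share. Dnaja1 in those libraries was lowest in SM6 young (244 CPM) and Lgr5-GFP young (505), highest in SM6 old (436) and intermediate in Lgr5-GFP old. With the Paneth and Defa genes removed before scaling, the difference of the age effects was -1.45 for Dnaja1 and -1.50 for Hsph1. Removing these genes does not remove other transcripts of Paneth cells, whose part in the result was not tested. The share of mitochondrial transcripts was also separate between the Lgr5-GFP ages, at 4.02% to 6.29% when young and 7.37% to 9.33% when old, beside 6.39% to 7.01% and 5.77% to 6.85% in young and old SM6 libraries, and its part was not tested.

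**Figure D3:**
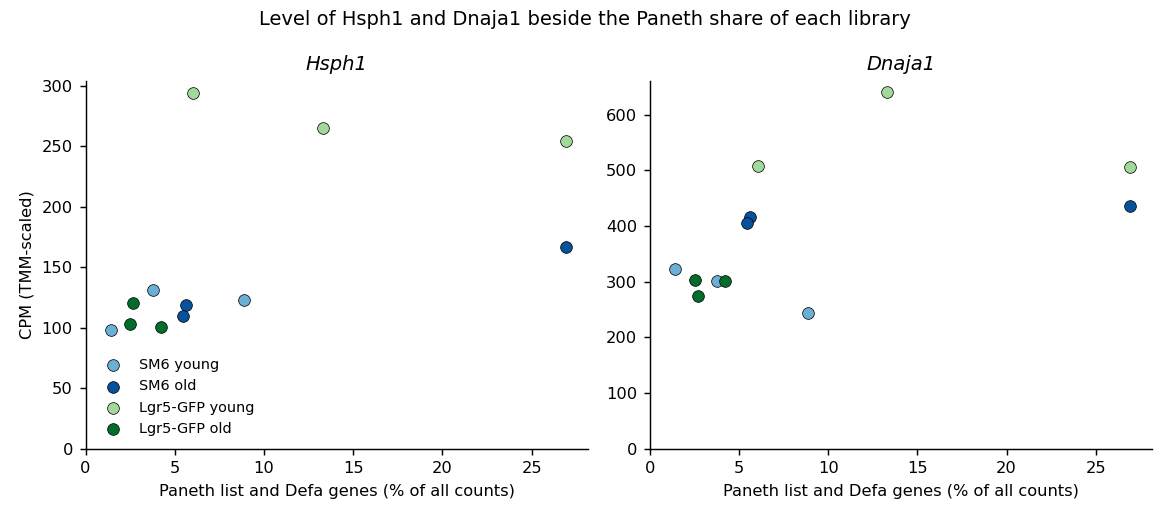
Level of Hsph1 and Dnaja1 (CPM of TMM-scaled totals) against the share of counts from the Paneth list and Defa genes, 1 point per library. At a share of 26.9% the Lgr5-GFP young library has 255 CPM of Hsph1 and the SM6 old library 167 CPM.

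Of the other lists, goblet cell genes (8) had 5 called higher with age in SM6 and 0 called in Lgr5-GFP, and enterocyte genes (8) had 4 higher in SM6 and 2 lower in Lgr5-GFP. The enteroendocrine list (7) had 1 higher and 0, the intestinal stem cell list (17) 3 lower and 0, and the tuft cell (5 tested of 6), immune cell (2 of 9), stromal and endothelial cell (1 of 8) and cell cycle (17) lists 0 called in either. Over all tested genes, 0.643% were called higher and 1.77% lower with age in SM6, and 0.194% and 0.299% in Lgr5-GFP. In the difference of the age effects, 8 of 8 goblet genes were negative with 3 called lower, 7 of 8 enterocyte genes with 4 called lower, and 7 of 7 enteroendocrine genes with 1 called lower. Of all tested genes, 0.606% were called lower in that difference. Summed enterocyte markers overlapped between the Lgr5-GFP ages, at 1746 to 3003 CPM when young and 2094 to 11880 when old. The young and old SM6 libraries had 1940 to 2045 and 2520 to 9176 CPM. Summed immune markers (9 genes) were low but separate between the Lgr5-GFP ages, at 6.19 to 28.9 CPM when young and 0.962 to 4.86 when old, beside 4.23 to 6.08 and 1.55 to 18.3 CPM in young and old SM6 libraries, with Cd79a and Coro1a at 0 in all 4 groups. Summed tuft cell markers (6 genes) overlapped, at 2.83 to 51.5 CPM in Lgr5-GFP young, 2.89 to 13 in Lgr5-GFP old, 4.42 to 11.5 in SM6 young and 2.33 to 21.5 in SM6 old. The 5 tested tuft genes had a median log2 age difference of -2.36 in Lgr5-GFP, with 4 negative, and a median of 2.39 between the isolations at 2 months, with all 5 higher in Lgr5-GFP. The highest immune and tuft values thus fell in Lgr5-GFP young, as did those of Hsph1, Dnaja1 and Hspa1a, and their part was not tested. Summed stromal and endothelial markers stayed at 8.66 CPM or less in every library. The summed level of the immediate early list, genes that rise within minutes of a stimulus such as cell handling, was 635 to 756 CPM in SM6 young and 522 to 625 in SM6 old. For Lgr5-GFP it was 844 to 987 CPM when young and 622 to 751 when old. The Lgr5-GFP young libraries were highest here as they were for Hsph1 and Hspa1a, and the part of handling was not tested. Jun and Jund, partners in the AP-1 factor, were called lower in old SM6 ISCs (log2 differences -0.87 and -1.06) and, with Egr1, in the average of both isolations (-0.65, -0.90 and -1.09). Egr1 lost that call in 13 of 19 alternative fits. In SM6, Jund was not called without young replicate 2 or old replicate 2 (range over alternatives -1.21 to -0.97), nor Jun without young replicate 3 (range -1.03 to -0.69).

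Among the heat shock factors, Hsf1, the main activator of these genes, averaged 30.7 ± 8.78 CPM (SD, n = 3) in SM6 young and 28.3 ± 6.08 in SM6 old, with 31.8 ± 4.99 CPM in young and 32.4 ± 9.13 in old Lgr5-GFP libraries. Its log2 age difference was -0.11 (SE 0.277) in SM6 and 0.050 (SE 0.271) in Lgr5-GFP, neither called. Hsf2, a related factor active in development and in the proteasome response, was at 31.5, 29.3 and 39.6 CPM in SM6 young and 6.99, 11.5 and 11.1 in SM6 old. In Lgr5-GFP it was at 33.0, 14.2 and 25.6 when young and 12, 24.3 and 7.70 when old, so that the ages overlapped there and not in SM6. It fell by 1.74 on the log2 scale in SM6 (SE 0.372, adjusted p = 0.00939) and by 1.26 on average (SE 0.257, adjusted p = 0.00563, edgeR quasi-likelihood test, Benjamini-Hochberg). The SM6 call was lost without SM6 old replicate 1 (range over alternatives -1.9 to -1.53), and the difference between the isolations was not called (adjusted p = 0.57 in the same test).

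With the heat shock factors, 9 lists of other chaperone genes hold 113 genes, of which 96 were tested. In SM6, 2 were called higher and 4 lower with age, where 0.643% and 1.77% of all tested genes were. In Lgr5-GFP, 0 were higher and 3 lower (0.194% and 0.299% of all genes). The average gave 1 higher and 6 lower (0.598% and 2.06%), and the difference of the age effects 0 higher and 3 lower (0.0524% and 0.606%). The lists were drawn up with earlier results of these data known.

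Of 7 tested genes related to Hsp70 and Hsp110, 9 nucleotide exchange factors and Hsp70 cofactors, and 14 subunits of TRiC and prefoldin (the chamber for actin and tubulin and its feeder), 0 were called in any of these 4 comparisons. Unadjusted p-values under 0.05 in the average age effect numbered 0, 1 and 2 in these lists, where 12.8% of all tested genes had one. Hspa4, a second Hsp110, averaged 106 CPM in young and 113 in old SM6 libraries, and 124.5 in young and 119 in old Lgr5-GFP libraries. Bag3, which links Hsp70 to autophagy and is heat inducible, had a log2 age difference of 0.51 (SE 0.281) in SM6 and -0.24 (SE 0.278) in Lgr5-GFP, neither called. Of the 14 tested J proteins of the cytosol, 1 was called, Dnajc21, a factor of ribosome assembly. It was lower in old by 1.03 on average (log2 difference -1.03, SE 0.207, quasi-likelihood test of edgeR, adjusted p = 0.0047), with separate ages in both isolations. Of 9 small heat shock proteins only Hspb6 passed the filter, at 1 to 9 counts per library, and Hspb1, the commonest one in stressed cells, had 2 counts in all 12 libraries.

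Of 16 tested partners of Hsp90, 2 were called. Ptges3 (p23), which holds Hsp90 closed on its client, was at 960, 977 and 973 CPM in SM6 young and 350, 417 and 653 in SM6 old. In Lgr5-GFP it was at 617, 712 and 1157 when young and 472, 691 and 389 when old. Its SM6 log2 difference was -1.04 (SE 0.241, quasi-likelihood test of edgeR, adjusted p = 0.0184), which DESeq2 did not call, nor the fits without SM6 young replicate 2 or 3 or SM6 old replicate 1 or 2 (range over alternatives -1.33 to -0.84), and the average was -0.86 (adjusted p = 0.00406). Fkbp5, a partner of steroid receptors that glucocorticoids induce, rose in SM6 from 24.2, 28.7 and 25.9 CPM to 80.0, 85.2 and 47.8. In Lgr5-GFP it was at 34.9, 30.2 and 25.2 CPM when young and 30.6, 48.6 and 68.3 when old. The SM6 difference was 1.43 on the log2 scale (SE 0.27, adjusted p = 0.00355) and the average 1.06 (SE 0.191, adjusted p = 0.00214), both called in all 19 alternative fits. Stip1 (Hop), the bridge between Hsp70 and Hsp90, averaged 188 ± 46.0 CPM (SD, n = 3) in young and 120.1 ± 23.1 in old Lgr5-GFP libraries, a log2 difference of -0.65 (SE 0.188) that was not called (adjusted p = 0.156).

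**Figure D4:**
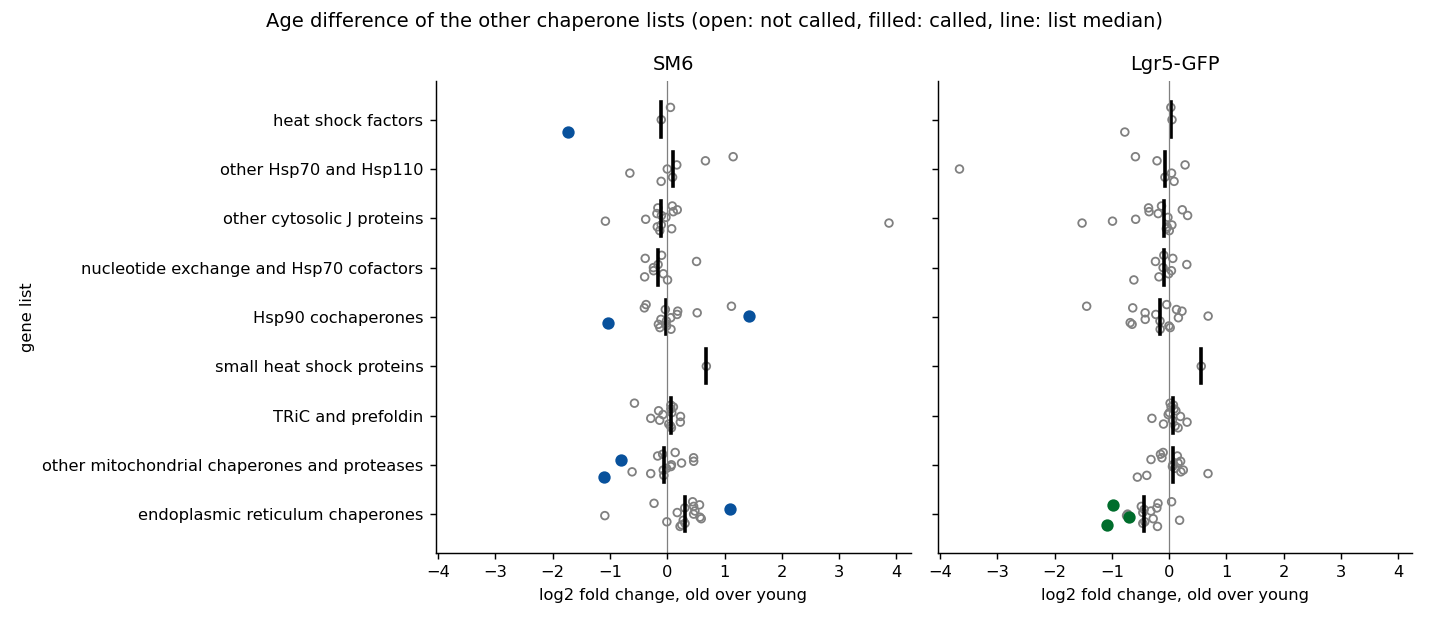
Log2 fold change of old over young for each tested gene of the 9 other chaperone lists, in SM6 (left) and Lgr5-GFP (right), with the list median as a line and called genes filled. The endoplasmic reticulum list has a median of 0.31 in SM6 and -0.44 in Lgr5-GFP, and the other lists of 3 or more genes have medians between -0.16 and 0.092.

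In mitochondria, 2 of the other 15 chaperones and proteases were called, both lower in old SM6 ISCs and on average. Yme1l1, a protease of the inner membrane, was at 302.5, 422 and 378 CPM in SM6 young and 150, 144 and 220 in SM6 old, a log2 difference of -1.10 (SE 0.207, quasi-likelihood test of edgeR, adjusted p = 0.00355). In Lgr5-GFP it was at 280.5, 287 and 338 when young and 178, 276 and 162 when old, a difference of -0.56 that was not called. Dnaja3, the J protein of the matrix, was at 161, 166 and 169 CPM in SM6 young and 74.6, 104 and 103 in SM6 old, a difference of -0.82 (SE 0.191, adjusted p = 0.0187) that was not called without SM6 young replicate 2 or 3 or SM6 old replicate 1 (range over alternatives -0.98 to -0.66). Its average of -0.57 kept the call in 14 of 19 alternatives. Hspa9, the Hsp70 of the matrix that delivers clients to Hspd1 and Hspe1, had differences of -0.071 in SM6 and 0.25 in Lgr5-GFP, neither called.

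Of 17 tested chaperones of the endoplasmic reticulum, 14 had a positive age difference in SM6 (median 0.31) and 15 a negative one in Lgr5-GFP (median -0.44), while the median over all tested genes was -0.0068 and -0.034. The 2 signs were opposite in 12 of the 17, both negative in 3 (Hyou1, Canx and Pdia4) and both positive in 2 (Calr and Pdia3). A single gene passed the test in SM6, Dnajc10, a reductase with a J domain (log2 difference 1.09, quasi-likelihood test of edgeR, adjusted p = 0.0202). In Lgr5-GFP 3 were lower in old: Sdf2l1, a cofactor of Hspa5 (-1.09, adjusted p = 0.0193), Creld2, a disulfide isomerase (-0.98, adjusted p = 0.0379), and Manf, a secreted stress factor (-0.70, adjusted p = 0.0486). Most of these calls turned on single libraries. Dnajc10 kept its call in 15 of 19 alternatives (0.87 to 1.27), Sdf2l1 in 15 (-1.22 to -0.86), Creld2 in 12 (-1.12 to -0.77) and Manf in 5 (-0.81 to -0.51). Dnajc10 lost it without SM6 young replicate 2 or 3 or SM6 old replicate 1 or 3, and Sdf2l1 and Creld2 without Lgr5-GFP young replicate 3 or Lgr5-GFP old replicate 1 or 3 among others. Manf lost it without any 1 library other than SM6 old replicate 3, without Paneth and Defa genes, with a replicate block and with library totals alone. Manf was at 148, 137 and 148 CPM in SM6 young, 206, 213 and 225 in SM6 old, 202, 199 and 219 in Lgr5-GFP young and 145, 132 and 103 in Lgr5-GFP old. Hyou1, an Hsp110 of the reticulum, was at 69.6, 77.3 and 79.2 CPM in SM6 young and 35.7, 31.8 and 39.0 in SM6 old. For Lgr5-GFP it was at 72.2, 60.4 and 89.2 CPM when young and 29.2, 81.1 and 23.1 when old, where the ages overlapped. It was lower in old on average (log2 difference -0.92, SE 0.209, adjusted p = 0.0148), with no call in SM6 alone (adjusted p = 0.0543) or Lgr5-GFP alone (adjusted p = 0.378). That call was lost without SM6 old replicate 2, Lgr5-GFP young replicate 3 or Lgr5-GFP old replicate 1 (range over alternatives -1.29 to -0.77).

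Hspa5 (GRP78), the Hsp70 of the reticulum and the target of the gate, was at 353, 281 and 356 CPM in SM6 young and 353, 373.5 and 635 in SM6 old. It was at 545, 571 and 688 CPM in Lgr5-GFP young and 356, 416 and 319 in Lgr5-GFP old. The Lgr5-GFP ages were separate and the SM6 ages overlapped. In the library with the highest Paneth share of its group, Hspa5 was highest in SM6 old (635 CPM). It was lowest in Lgr5-GFP young (545) and Lgr5-GFP old (319), and intermediate in SM6 young (353). Its log2 age difference was -0.73 in Lgr5-GFP (SE 0.2, quasi-likelihood test of edgeR, adjusted p = 0.122), and the difference of the age effects was -1.19 (SE 0.283, adjusted p = 0.0504). Paneth and goblet cells are rich in reticulum. In the difference of the age effects the list medians were -0.77 (reticulum), -5.13 (Paneth) and -1.7 (goblet). Between the isolations at 2 months they were 0.34, 2.35 and -0.12. The part of these cells in the reticulum list was not tested.

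Over the 12 libraries, the genes with a pattern most like Hsph1 were Mlf1, C330011M18Rik, Pdlim2, Zfp125 and Cntln, by the mean absolute difference of centred log2 CPM (0.162, 0.218, 0.222, 0.236 and 0.241). Hsph1 itself departs from its mean by 0.482 on that scale, and the median gene lies 0.572 away from it. Mlf1 and Cntln have 0 counts outside Lgr5-GFP young and 13 and 9 in it, and C330011M18Rik has 16 counts in all, so only Pdlim2 and Zfp125 follow Hsph1 with more counts. Among those most like Dnaja1 were Slc48a1, Sfn, Tap2 and Srm (0.160, 0.163, 0.177 and 0.178, where Dnaja1 departs from its mean by 0.360 and the median gene lies 0.484 away). Slc48a1, a heme transporter, averaged 21.9 CPM in young and 27.4 in old SM6 libraries, and 34.8 in young and 21.4 in old Lgr5-GFP libraries, the order of Dnaja1 apart from the last pair. Hsph1 and Dnaja1 lie 0.289 from each other.

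Copies of these genes limit some values. In the last 500 bases of the coding transcripts, 64.5% of the 72-base windows of Hspa8, 40.1% of Hspe1, 36.8% of Dnaja1, 22.9% of Hspd1, 21.4% of Hsp90aa1 and 0.872% of Hsp90ab1 also occur in another annotated gene, and those of Hsph1, Dnajb1, Hspa1a and Hspa1b in none. How reads with several positions were counted was not given in the sources used here. The 3 genes that share windows with Dnaja1, Gm15542, Gm6335 and Gm7816, reached at most 6 counts in a library. For Hsp90aa1 these genes are Gm12346, with 4 to 39 counts, and Gm5844, with 1 to 17. Of the 8 that share windows with Hspa8, Gm7232 had the most, 4 to 32 counts. Hspd1-ps3 reached 9 to 41 counts, and the other 11 annotated pseudogenes named after a member 3 or fewer.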

How the data were processed

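ISC libraries were made by the authors with a 3′ method that adds molecular identifiers, aligned to GRCm38 with STAR 2.4.2a and counted over exons with featureCounts. The deposited values are counts per gene and library, unscaled, and whether identifiers were collapsed is not given in the sources used here. All 12 columns were used. The study's own filter was applied: a gene needed over 5 reads and 1 CPM or more in any library. The study tested only libraries of another, full-length type, so the test was chosen for counts. Counts were fitted in R 4.3.3 with edgeR 4.0.16 (TMM scaling, quasi-likelihood, 1 mean per group), with p-values adjusted over 13368 genes by the Benjamini-Hochberg method at a threshold of 0.05. CPM values refer to TMM-scaled totals, and all tests were two-sided. Each SE is the size of the log2 difference divided by the square root of its quasi-likelihood F statistic. Groups come from the sample titles. Alternatives were DESeq2 1.42.0, limma 3.58.1 (voom with sample quality weights), library totals alone, looser and stricter filters, removal of Paneth and Defa genes, a replicate block and leaving out each library (closing section). Replicates of each group differed by more than sampling noise (12 pairs). The fit was also run on simulated counts with known changes, with the outcome not reported here. Positions come from GENCODE vM21 and promoters from RefSeq (GRCm38.p6). The floor of 3 counts covers counting error only. The figures were drawn with matplotlib.

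The members and lists were chosen with earlier results of these data known. The genes named from a list were those with the smallest adjusted p among its called genes, up to 4 per age comparison, with Hsf1, Hsf2, Hspa9, Hspa5, Hspa4, Stip1, Bag3 and Hspb1 named whatever their value, and the 5 genes most like each of Hsph1 and Dnaja1, of which 1 is not reported here. Smu1, Gm6368, Hspb6 and the copies were named after their values were seen.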

Additional observations from a re-analysis of the deposited data

Results flagged for a closer look

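Dnaja1 was singled out because all old libraries lay above all young ones in SM6 and below them in Lgr5-GFP. Its age effects differed by -1.44 on the log2 scale (Lgr5-GFP minus SM6), and the difference was not tested because the gene had been chosen for its pattern. Among the named genes of the other lists, the difference of the age effects passed the edgeR quasi-likelihood test for Sdf2l1 (-1.34, Benjamini-Hochberg adjusted p = 0.0317), Creld2 (-1.55, adjusted p = 0.0127) and Manf (-1.27, adjusted p = 0.00756), all chaperones or factors of the endoplasmic reticulum. With library totals alone none of these 3 was called, and Sdf2l1 kept its call in 9 of 19 alternative fits. In the difference of the age effects, the Paneth, goblet, enterocyte and enteroendocrine cell markers were mostly negative too. At 2 months Sdf2l1, Creld2 and Manf were higher in Lgr5-GFP than in SM6 (log2 differences 0.54, 0.72 and 0.52, none called). The list medians there were 2.35 (Paneth), 0.38 (enterocyte), -0.12 (goblet) and -1.26 (enteroendocrine). The part of these cells was not tested.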

How the results depend on the processing

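The 6 tested chaperones other than Hspa1a and Hspa1b gave 0 calls under every alternative except 2: 1 in SM6 without a filter beyond 1 count (Hsp90ab1), and 1 at 2 months in DESeq2 (Hspa8). Leaving out any 1 of the 12 libraries gave 0 to 0 calls. The replicate block gave 0 calls in all 6 comparisons. Taken over all tested genes, same-numbered libraries did not deviate together (r from -0.074 to 0.048 over 18 pairs), which cannot show a shared step that touched few genes. Under the block all genes gave 332 calls in SM6 and 61 in Lgr5-GFP. Genes of the other chaperone lists called in Lgr5-GFP went from 3 to 0 with library totals alone, and in the difference of the age effects from 3 to 0 with library totals alone and to 6 in DESeq2. The promoter run went from 2 genes to 6 with 1 mismatch. With library totals alone the median of all genes was -0.16 in SM6, 0.16 in Lgr5-GFP and 0.35 in their difference, beside -0.0068, -0.034 and 0.0032.

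Signs turned for uncalled differences and for Hsph1 in SM6, the largest main value among them being -0.44 (Hsp90ab1 at 2 months, without SM6 young replicate 2). With library totals alone they were -0.0058 (Hsph1) and -0.088 (Hspe1) for age in SM6, 0.096 (Hspa8) and 0.17 (Hsp90ab1) in Lgr5-GFP, 0.076 (Dnajb1) and 0.021 (Hspa8) for the difference, 0.18 (Hsp90aa1) at 22 months and -0.035 (Hspe1) at 2 months. Hsp90aa1 in SM6 was 0.010 in DESeq2, 0.011 in voom, 0.014 without Paneth and Defa genes and 0.033 with the replicate block. Hsp90ab1 in Lgr5-GFP was 0.0062 in DESeq2 and 0.0059 without Paneth and Defa genes. Leaving out a library gave, for age in SM6, -0.032 to 0.28 (Hsph1), -0.27 to 0.0084 (Dnajb1), -0.16 to 0.23 (Hsp90aa1) and -0.046 to 0.18 (Hspe1). In Lgr5-GFP it gave -0.044 to 0.059 (Hsp90ab1) and -0.000397 to 0.21 (Hspd1), and for the difference -0.050 to 0.19 (Hspe1). At 2 months it gave -0.63 to 0.032 (Hsp90ab1), -0.16 to 0.073 (Hspd1) and -0.014 to 0.18 (Hspe1), and at 22 months -0.11 to 0.14 (Dnajb1) and -0.16 to 0.19 (Hsp90aa1). The causes were not tested.

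Calls over all genes in SM6, Lgr5-GFP, the average, the difference, 2 months and 22 months numbered 323, 66, 355, 88, 12 and 96, against 603, 274, 590, 224, 125 and 228 without a filter. Leaving out 1 library gave 145 (without SM6 young replicate 2) to 403, 26 (without Lgr5-GFP old replicate 1) to 113 (without SM6 old replicate 3), 228 to 471, 41 (without Lgr5-GFP young replicate 1) to 98, 6 (without SM6 young replicate 2) to 38 (without SM6 old replicate 3) and 40 (without Lgr5-GFP old replicate 3) to 120, so the background shares rest on single libraries too. Depth limits Hspa1a and Hspa1b most.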
